A study of Homo sapiens with 16 samples.

Results

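The 4 tissue inhibitors of metalloproteinases, TIMP1 to TIMP4, and RECK, a membrane-anchored inhibitor, were followed across 4 groups of LX-2 cells. LX-2 is a human cell line derived from hepatic stellate cells, which lay down and remodel matrix in the injured liver. The 5 genes were taken by their symbols from the 61806 genes of the deposited table, and each symbol matched 1 gene. TIMP3 was higher than in wild type (WT) in all 3 other groups, TIMP1 and TIMP2 moved in opposite directions in the knockouts of Fn14alpha and of total Fn14, RECK was lower in the Fn14 knockout, and TIMP4 was counted in the Fn14 knockout only.

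The first group was wild-type LX-2 given recombinant human TWEAK at 100 ng/mL (TWEAK). The second was a CRISPR/Cas9 knockout of the Fn14alpha isoform (Fn14α KO) and the third one of total Fn14, made in the same way (Fn14 KO), both given the PBS vehicle. The fourth was wild-type LX-2 given PBS (WT). Each group had 4 libraries of poly(A) RNA, from cells kept in reduced-serum medium for 24 h and then treated for 2 h. TWEAK is a cytokine of the TNF family, and Fn14, the product of TNFRSF12A, is its receptor. The title of the series concerns a splice isoform of Fn14 that signals without TWEAK. Each knockout is a line separate from the WT cells, and the labels do not say if it grew from 1 clone or from pooled cells. The design text calls the replicates biological and says no more of their origin, and the p-values therefore cover only the spread among libraries, which may be technical. Of the 4 comparisons below, 3 set a group against the same 4 WT libraries and so share them.

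Total counts ran from 13335919 to 16888606 per library. TNFRSF12A averaged 130.4 ± 7.07 FPKM with TWEAK, 59.3 ± 6.43 in Fn14α KO, 33.6 ± 2.77 in Fn14 KO and 128.1 ± 6.29 in WT (SD, n = 4 each), and its transcript was lower than in WT in both knockouts (edgeR, log2 fold change −1.14, adjusted p = 2.16e-11 in Fn14α KO; −1.81, adjusted p = 2.85e-15 in Fn14 KO). Of 14 stellate cell markers, 8 reached 2 FPKM on average with TWEAK, 7 in Fn14α KO, 9 in Fn14 KO and 9 in WT. The collagen gene COL1A1 averaged 119.5 to 195.9 FPKM in the 4 groups, with 195.9 in Fn14 KO and 133.4 in WT. COL1A2 went the other way, at 0.16 FPKM in Fn14 KO and 1.48 in WT. LRAT, the enzyme that esterifies retinol in quiescent stellate cells, was at 0 in every TWEAK, Fn14α KO and WT library. In Fn14 KO it averaged 0.005 FPKM. The summed level of the stellate markers was 856.1 to 945.1 FPKM with TWEAK, 565.0 to 582.0 in Fn14α KO, 959.4 to 998.9 in Fn14 KO and 679.4 to 718.7 in WT, and its part in the results below was not tested. That sum rests mainly on VIM, COL1A1 and SPARC: in Fn14 KO 6 of the 14 markers averaged above WT and 8 below, among them COL3A1 (8.33 FPKM in Fn14 KO and 23.8 in WT) and LHX2 (4.62 in Fn14 KO and 10.1 in WT). With TWEAK 4 markers averaged above WT and 9 below, although VIM was at 611.5 FPKM with TWEAK and 377.9 in WT. In Fn14α KO 3 averaged above WT and 10 below. Markers of hepatocytes, endothelium and leukocytes each summed to at most 4.48 FPKM in any library, and APOB, TTR, CLEC14A and C1QA were at 0 throughout. Cholangiocyte markers summed to 11.3 to 12.8 FPKM in Fn14 KO and to 5.41 to 7.24 FPKM in the other groups, a sum carried by SOX9 (11.02 FPKM in Fn14 KO and 4.2 in WT), while KRT7, KRT19, EPCAM, SPP1 and CFTR averaged lower in Fn14 KO than in WT. On the third principal component (5.43% of the variance), Fn14 KO replicate 1 (24.5) and WT replicate 4 (37.0) stood away from the remaining 14 libraries (−19.9 to 10.4), and results are also given without them.

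TIMPs are secreted proteins that occupy the active site of matrix metalloproteinases (MMPs) and so hold back the breakdown of collagen and other matrix. In stellate cells TIMP1 is known as a product of the activated, scar-forming state. TIMP2 also takes part in switching on an enzyme, since it links the membrane protease MMP14 to the precursor of MMP2. TIMP3 differs from the others in that it binds to the matrix and also inhibits ADAM and ADAMTS proteases, among them ADAM17, which sheds TNF. TIMP4 is the most tissue-restricted member of the family, and RECK is a glycolipid-anchored protein that inhibits several MMPs at the cell surface and serves in WNT7 signalling in brain vessels.

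On GRCh38, as the deposited table gives it, TIMP1 (ENSG00000102265) lies at chrX:47582408-47586789 on the plus strand and TIMP2 (ENSG00000035862) at chr17:78852977-78925387 on the minus strand. TIMP3 (ENSG00000100234) lies at chr22:32801705-32863041 on the plus strand, TIMP4 (ENSG00000157150) at chr3:12153068-12158912 on the minus strand, and RECK (ENSG00000122707) at chr9:36036913-36124455 on the plus strand. In the GENCODE annotation, the coding transcripts have up to 6 exons in TIMP1, 5 each in TIMP2, TIMP3 and TIMP4, and 21 in RECK. TIMP1, TIMP3 and TIMP4 lie inside the synapsin genes SYN1, SYN3 and SYN2, each on the opposite strand to its host.

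The promoters of TIMP3 and TIMP1 are shown because TIMP3 was the gene that changed in every comparison, and TIMP1 the most abundant of the 5. Each is the 250 bases before the gene's RefSeq start on GRCh38.p14, at chr22:32801455-32801704 for TIMP3 and chrX:47582186-47582435 for TIMP1, both on the plus strand. Capitals mark GGGCGG on either strand, the core of the GC box bound by SP1, and in TIMP1 also TGAGTAA, a variant AP-1 sequence known from work on that promoter. The final bases of the TIMP1 stretch lie within the span that the deposited table gives the gene.
TIMP3: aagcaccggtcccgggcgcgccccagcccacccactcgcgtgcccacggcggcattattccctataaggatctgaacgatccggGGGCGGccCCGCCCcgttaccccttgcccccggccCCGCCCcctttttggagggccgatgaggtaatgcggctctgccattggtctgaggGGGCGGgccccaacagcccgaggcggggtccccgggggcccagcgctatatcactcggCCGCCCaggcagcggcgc
TIMP1: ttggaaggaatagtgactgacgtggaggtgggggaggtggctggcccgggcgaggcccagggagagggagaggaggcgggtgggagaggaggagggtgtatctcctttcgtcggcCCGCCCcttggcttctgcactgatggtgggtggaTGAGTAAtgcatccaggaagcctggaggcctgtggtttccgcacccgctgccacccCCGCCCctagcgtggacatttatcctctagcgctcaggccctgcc

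Of the 5 genes, 4 had an entry in the promoter table. In these windows the GC content was 72.4% for TIMP3, 64.8% for TIMP1, 63.6% for RECK and 62.8% for TIMP4, against a median of 58.0% over 27305 promoters. GGGCGG occurred 5 times in TIMP3, 3 times in RECK, 2 times in TIMP1 and 1 time in TIMP4, and 42.3% of all promoters held it. TGAGTAA occurred only in TIMP1 among these 4, on the plus strand with its first base 101 bases before the start, and 2.25% of all promoters held it on either strand. The AP-1 sequence TGANTCA (6.60% of promoters), TATAAA (11.1%) and the kappa B site of NF-kB (9.57%) had no match in the 4 windows.

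Levels between genes were compared as FPKM, a count scaled by exonic length and library total, which the authors computed from the counts. TIMP1 was above TIMP2, and TIMP2 above TIMP3, in all 16 libraries. TIMP3 exceeded RECK in each of the 12 libraries of TWEAK, Fn14α KO and Fn14 KO, and was below it in all 4 WT libraries. The levels of the 5 genes in each library are plotted next.

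**Figure D1:**
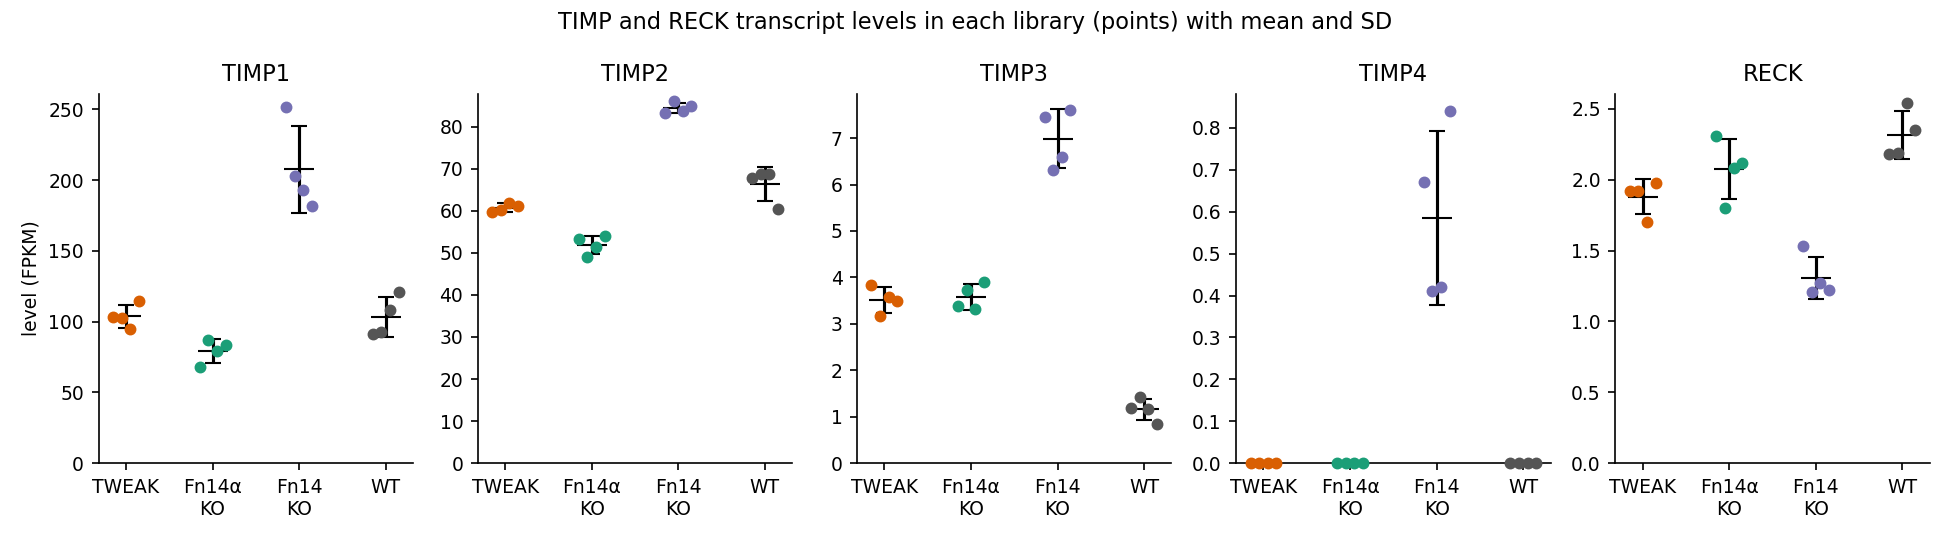
Level (FPKM, linear axes from 0) of TIMP1, TIMP2, TIMP3, TIMP4 and RECK in the 4 libraries of each group (points), with the mean (long bar) and SD (error bar). TIMP3 stands above its WT level (0.850 to 1.42 FPKM) in every other library, and the 4 Fn14 KO libraries lie above all others for TIMP1 to TIMP4 and below all others for RECK. Of all genes tested, 21.3% had the Fn14 KO libraries above all WT libraries and 21.6% below. Against Fn14α KO the shares were 26.5% and 24.5%. The share of genes set apart from all other groups at once was not computed.

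Genes were tested on the deposited counts with edgeR's quasi-likelihood test, and a gene was called at an adjusted p under 0.05. Of the 5 genes, 4 passed the filter on low counts, TIMP4 being the one that did not. With TWEAK, 6.87% of the 16029 genes tested differed from WT, and of the 4 inhibitors 1 was called higher (4.82% of genes) and none lower (2.05% of genes), although RECK had an unadjusted p under 0.05. In Fn14α KO, where 42.2% of genes differed from WT, 1 was called higher (20% of genes) and 2 lower (22.2% of genes). In Fn14 KO, where 52.9% of genes differed from WT, 3 were called higher (26.6% of genes) and 1 lower (26.3% of genes). Between Fn14 KO and Fn14α KO, 59.2% of genes differed, and 3 of the 4 inhibitors were higher in Fn14 KO (30.7% of genes) and 1 lower (28.5% of genes). The 4 libraries of a group lay above all WT libraries for 9.15% of genes with TWEAK, 18.7% in Fn14α KO and 21.3% in Fn14 KO, and below them for 6.63%, 20.7% and 21.6%. Fn14 KO libraries lay above all Fn14α KO libraries for 26.5% of genes and below them for 24.5%.

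TIMP3, the matrix-bound inhibitor of ADAM proteases, was about as high with TWEAK as in Fn14α KO, and higher still in Fn14 KO. Its levels were 3.84, 3.16, 3.57 and 3.49 FPKM with TWEAK, 3.38, 3.72, 3.32 and 3.91 in Fn14α KO, 7.45, 6.31, 6.59 and 7.60 in Fn14 KO, and 1.19, 1.42, 1.17 and 0.850 in WT. TWEAK and Fn14α KO libraries overlapped, all of them stood above every WT library, and all stood below every Fn14 KO library. The means were 3.52 ± 0.280 FPKM with TWEAK, 3.58 ± 0.281 in Fn14α KO, 6.99 ± 0.634 in Fn14 KO and 1.16 ± 0.234 in WT (SD, n = 4 each). Counts behind these values ran from 214 to 267 per library with TWEAK, 219 to 268 in Fn14α KO, 427 to 557 in Fn14 KO and 63 to 110 in WT. TIMP3 transcript was thus counted in every library, at a level well below those of TIMP1 and TIMP2.

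Against WT, TIMP3 rose 3.16-fold with TWEAK (edgeR, log2 fold change 1.66 ± 0.12 SE, adjusted p = 5.32e-10). In Fn14α KO it rose 3.02-fold (1.59 ± 0.12, edgeR adjusted p = 2.00e-10) and in Fn14 KO 6.54-fold (2.71 ± 0.12, edgeR adjusted p = 2.35e-15). Fn14 KO was itself 2.16-fold above Fn14α KO (1.11 ± 0.10, edgeR adjusted p = 1.95e-09). Without WT replicate 4 and Fn14 KO replicate 1 the log2 values were 1.54 with TWEAK, 1.47 in Fn14α KO, 2.55 in Fn14 KO and 1.08 between the knockouts, each still called. On log2(FPKM + 1), a scale that understates changes of low genes, the rise was 1.07 with TWEAK and 1.09 in Fn14α KO (limma, adjusted p = 1.62e-07 and 1.97e-08). The genes around TIMP3 were mostly higher in Fn14 KO too, as 73.8% of 275 genes on chromosome 22 were called higher there than in WT. TIMP3 was above all 100 of its tested neighbours, 50 on each side, in each of the 3 comparisons with WT. Between the knockouts, 3 of the neighbours stood above it. After the neighbours' median was removed, the TIMP3 log2 change was 1.61 with TWEAK, 1.52 in Fn14α KO, 2.25 in Fn14 KO and 0.77 between the knockouts. Whether the regional shift and the level of TIMP3 share a source was not tested.

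**Figure D2:**
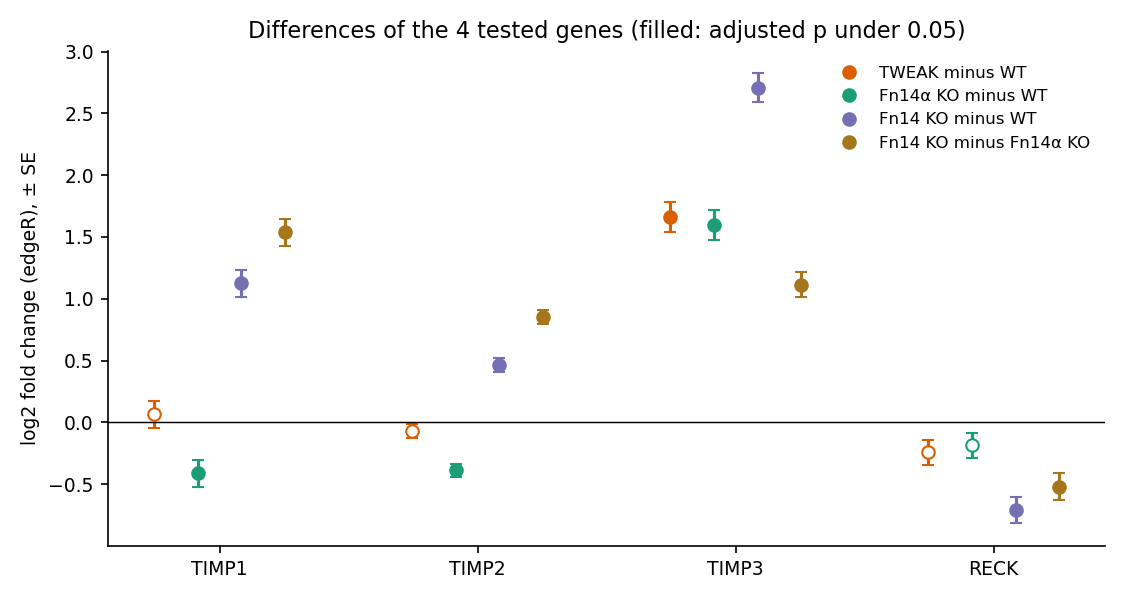
Log2 fold change from the edgeR fit (vertical axis, ± SE) of TIMP1, TIMP2, TIMP3 and RECK in the 4 comparisons, with filled points for an adjusted p under 0.05. TIMP3 lies above 0 throughout (1.11 to 2.71), TIMP1 and TIMP2 lie below 0 in Fn14α KO and above 0 in Fn14 KO, and RECK lies below 0 throughout, with open points for TWEAK and Fn14α KO.

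TIMP1, the inhibitor most closely tied to stellate cell activation, was the most abundant of the 5 and differed in opposite directions between the knockouts. Its levels were 103, 103, 94.6 and 114 FPKM with TWEAK, 67.7, 87.3, 79.3 and 83.2 in Fn14α KO, 252, 203, 193 and 182 in Fn14 KO, and 91.2, 92.4, 108 and 121 in WT. Every Fn14α KO library lay below and every Fn14 KO library above the other groups, whereas TWEAK and WT overlapped. The means were 103.7 ± 8.10 FPKM with TWEAK, 79.4 ± 8.45 in Fn14α KO, 207.5 ± 30.9 in Fn14 KO and 103.2 ± 14.1 in WT (SD, n = 4 each). In bulk RNA, fewer cells expressing a gene and less of its RNA per cell cannot be told apart.

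With TWEAK the log2 difference of TIMP1 from WT was 0.06 ± 0.11 (SE; edgeR adjusted p = 0.782). TIMP1 fell in Fn14α KO, to a level 1.33-fold below WT (log2 fold change −0.41 ± 0.11, edgeR adjusted p = 0.00382), and rose 2.18-fold in Fn14 KO (1.12 ± 0.11, edgeR adjusted p = 1.28e-08). Fn14 KO exceeded Fn14α KO 2.90-fold (1.54 ± 0.11, edgeR adjusted p = 8.74e-11). Without WT replicate 4 and Fn14 KO replicate 1, the values were 0.15 with TWEAK, −0.32 in Fn14α KO, 1.10 in Fn14 KO and 1.43 between the knockouts, with the same calls.

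TIMP1 lies on chromosome X within a run of genes that were higher together in Fn14 KO. The median log2 change of the 25 tested genes on each side was 0.75 in Fn14 KO and 0.02 in Fn14α KO, and that of 50 on each side was 0.48 in Fn14 KO and −0.05 in Fn14α KO. Of these 100 neighbours, 5 stood above TIMP1 in Fn14 KO minus WT. With the median of 50 genes on each side removed, the TIMP1 difference in Fn14 KO was 0.64 (edgeR adjusted p = 4.20e-05), and with that of 25 on each side it was 0.37 (edgeR adjusted p = 0.00698). Between the knockouts it was 0.88 and 0.79 by the same steps. In Fn14α KO it was −0.36 and −0.43, and 68.1% of the 389 genes of the chromosome were called lower than in WT there. Those genes had a median log2 change of −0.69 in Fn14α KO, a larger fall than that of TIMP1 as tested (−0.41). Of the 100 neighbours, 28 stood below TIMP1 and 72 above it in Fn14α KO minus WT. Whether the regional shift and the level of TIMP1 share a source was not tested.

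TIMP2, which inhibits MMPs and also helps MMP14 to activate MMP2, was, like TIMP1, lowest in Fn14α KO and highest in Fn14 KO, with smaller differences. Its levels were 59.7, 60.1, 61.9 and 61.2 FPKM with TWEAK, 53.2, 49.0, 51.3 and 53.9 in Fn14α KO, 83.1, 86.0, 83.7 and 84.8 in Fn14 KO, and 67.7, 68.7, 68.7 and 60.4 in WT. Fn14α KO libraries were the lowest and Fn14 KO libraries the highest, with no overlap, while the lowest WT library, replicate 4, fell among the TWEAK libraries. The means were 60.7 ± 1.02 FPKM with TWEAK, 51.8 ± 2.22 in Fn14α KO, 84.4 ± 1.29 in Fn14 KO and 66.4 ± 3.99 in WT (SD, n = 4 each).

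TIMP2 fell 1.31-fold in Fn14α KO (log2 fold change −0.39 ± 0.06 SE, edgeR adjusted p = 4.14e-06) and rose 1.38-fold in Fn14 KO (0.46 ± 0.06, edgeR adjusted p = 1.63e-07) against WT. Fn14 KO exceeded Fn14α KO 1.81-fold (0.85 ± 0.06, edgeR adjusted p = 4.00e-12). TIMP2 with TWEAK was −0.07 ± 0.06 from WT on the log2 scale (edgeR adjusted p = 0.508). The 100 neighbours of TIMP2 on chromosome 17 had a median log2 change of 0.42 in Fn14 KO and 0.20 in Fn14α KO against WT. With that median removed, the TIMP2 rise in Fn14 KO was no longer called (0.04, edgeR adjusted p = 0.571), and with 25 genes on each side it was 0.16 (edgeR adjusted p = 0.0203). The fall in Fn14α KO became −0.59 and the difference between the knockouts 0.66 by the wider window. In Fn14 KO minus WT 45 of the 100 neighbours stood above TIMP2, but in Fn14α KO minus WT 99 did.

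**Figure D3:**
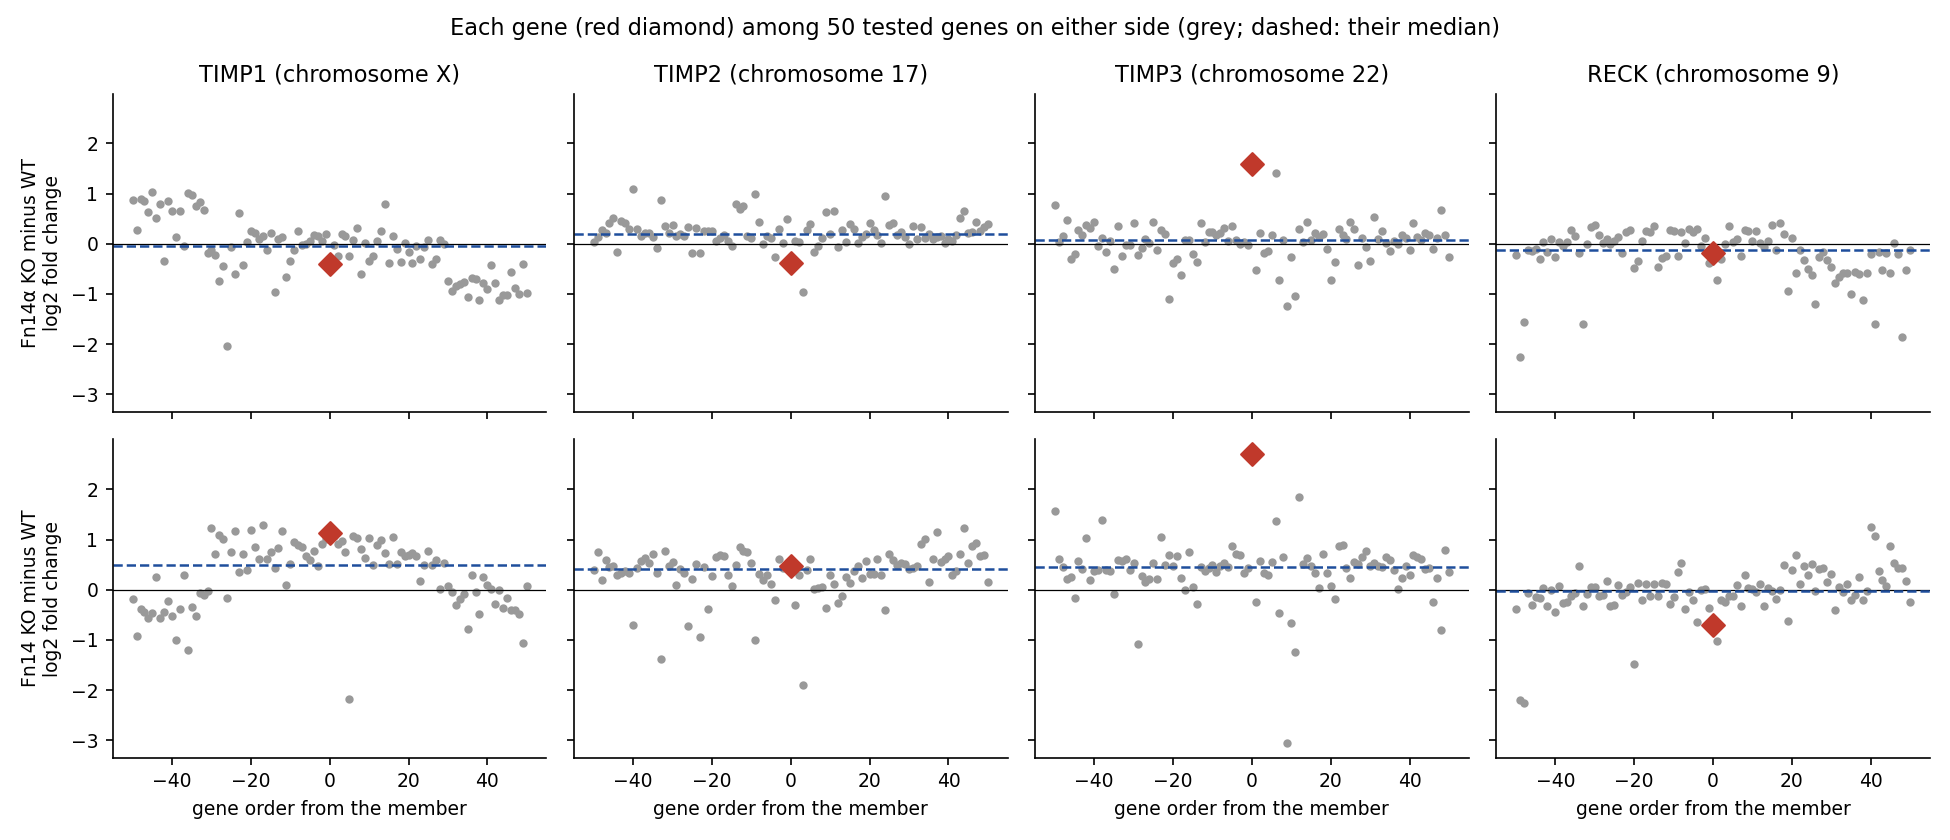
Log2 fold change against WT (vertical axes, Fn14α KO above and Fn14 KO below) of TIMP1, TIMP2, TIMP3 and RECK (red diamonds) and of up to 50 tested genes on each side in gene order (grey points, dashed line at their median). TIMP1 sits in a raised run of genes in Fn14 KO and TIMP2 sits near its neighbours' median of 0.42 there, while TIMP3 stands above all its neighbours in both rows.

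TIMP4, the tissue-restricted member, was counted only in Fn14 KO among these libraries. It had 12, 8, 7 and 16 counts in Fn14 KO (0.670, 0.410, 0.420 and 0.840 FPKM) and 0 counts in each of the 12 TWEAK, Fn14α KO and WT libraries. Pooled over 4 libraries, its 43 counts in Fn14 KO were 0.700 CPM, counts scaled to the library total (95% exact Poisson interval 0.507 to 0.944, counting error only). No TIMP4 in WT allows up to 0.0476 CPM at a floor of 3 counts over the group, so TIMP4 was at least 14.7-fold higher in Fn14 KO than in WT, at least 13.9-fold higher than with TWEAK and at least 13.6-fold higher than in Fn14α KO, taking its level in Fn14 KO as measured. From the lower end of the interval the bounds were 10.65-fold against WT, 10.03-fold against TWEAK and 9.86-fold against Fn14α KO. When all genes were fitted with no filter on low counts, TIMP4 passed in Fn14 KO against WT (edgeR adjusted p = 4.82e-08) and against Fn14α KO (edgeR adjusted p = 6.23e-08). These p-values are not comparable with those of the main test. For TIMP1 in Fn14 KO against WT, the unfiltered edgeR fit gave an adjusted p of 6.5e-50, against 1.28e-08 in the main test. TIMP4 also entered the unfiltered fit only through its Fn14 KO counts. Its level in Fn14 KO was still the lowest of the 5 genes.

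Overlap with the synapsin hosts could matter for such low counts, because no source used here states the strand setting of the counting. SYN2, which has an exon that touches a TIMP4 exon, had 0 counts with TWEAK, 1 in Fn14α KO, 4 in Fn14 KO and 3 in WT, summed over 4 libraries. SYN1, the host of TIMP1, had 6 counts with TWEAK, 5 in Fn14α KO, 30 in Fn14 KO and 10 in WT, where TIMP1 had 8871, 6673, 18390 and 9423 in that order of groups. SYN3, the host of TIMP3, had 16 counts with TWEAK, 12 in Fn14α KO, 8 in Fn14 KO and 18 in WT. No SYN1 or SYN3 exon lies within the span of TIMP1 or TIMP3. CEP295NL, inside TIMP2 on the same strand, had 45 counts over all 16 libraries, and RECK overlaps 1 unnamed gene that had none.

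RECK, the membrane-anchored inhibitor, was lowest in Fn14 KO. Its levels were 1.92, 1.92, 1.70 and 1.98 FPKM with TWEAK, 2.31, 1.80, 2.08 and 2.12 in Fn14α KO, 1.53, 1.21, 1.27 and 1.22 in Fn14 KO, and 2.18, 2.19, 2.54 and 2.35 in WT. All Fn14 KO libraries lay below every other library, Fn14α KO overlapped both TWEAK and WT, and the TWEAK libraries all lay below WT, as 6.63% of tested genes did. The means were 1.88 ± 0.123 FPKM with TWEAK, 2.08 ± 0.210 in Fn14α KO, 1.31 ± 0.151 in Fn14 KO and 2.32 ± 0.169 in WT (SD, n = 4 each), from 100 to 224 counts per library.

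RECK fell 1.63-fold in Fn14 KO against WT (log2 fold change −0.71 ± 0.11 SE, edgeR adjusted p = 5.63e-06) and was 1.44-fold lower in Fn14 KO than in Fn14α KO (−0.52 ± 0.11, edgeR adjusted p = 0.000251). The difference from WT did not pass with TWEAK (−0.24 ± 0.10, edgeR adjusted p = 0.176) or in Fn14α KO (−0.19 ± 0.10, edgeR adjusted p = 0.149). Its neighbours on chromosome 9 had a median near 0 in Fn14 KO (−0.02), and RECK stood at −0.69 once that median was removed. Of its 100 neighbours, 4 lay below it in Fn14 KO minus WT.

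The composition of the TIMP pool was described from the FPKM of TIMP1 to TIMP4 added together, a description made after the values had been seen. The pool was 168.0 ± 7.95 FPKM with TWEAK, 134.8 ± 7.70 in Fn14α KO, 299.5 ± 30.3 in Fn14 KO and 170.7 ± 11.1 in WT (SD, n = 4 each). TIMP1 made up 61.7% ± 1.96 of it with TWEAK, 58.8% ± 3.25 in Fn14α KO, 69.1% ± 3.10 in Fn14 KO and 60.2% ± 4.46 in WT. TIMP3 supplied 2.10% ± 0.199 with TWEAK, 2.66% ± 0.127 in Fn14α KO, 2.35% ± 0.288 in Fn14 KO and 0.685% ± 0.171 in WT and was at most 2.77% in any library. TIMP1 exceeded TIMP2 1.71 ± 0.140 times with TWEAK, 1.54 ± 0.209 times in Fn14α KO, 2.46 ± 0.391 times in Fn14 KO and 1.57 ± 0.308 times in WT.

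Transcripts of the MMPs, the main enzymes that TIMPs inhibit, were lower in sum in both knockouts than with TWEAK or in WT. Summed over 23 MMP genes, the level was 231.0 ± 10.4 FPKM with TWEAK, 94.6 ± 2.97 in Fn14α KO, 102.4 ± 3.59 in Fn14 KO and 207.8 ± 7.51 in WT. The TIMP sum divided by the MMP sum was 0.727 ± 0.0218 with TWEAK, 1.43 ± 0.102 in Fn14α KO, 2.92 ± 0.189 in Fn14 KO and 0.821 ± 0.0279 in WT (SD, n = 4 each). The ranges of this ratio did not overlap between any groups, at 0.701 to 0.751 with TWEAK, 1.33 to 1.52 in Fn14α KO, 2.78 to 3.19 in Fn14 KO and 0.790 to 0.852 in WT. It is a ratio of transcripts, not of proteins or of inhibitory activity. In Fn14α KO both sums were below those of WT, whereas in Fn14 KO the TIMP sum was above and the MMP sum below.

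**Figure D4:**
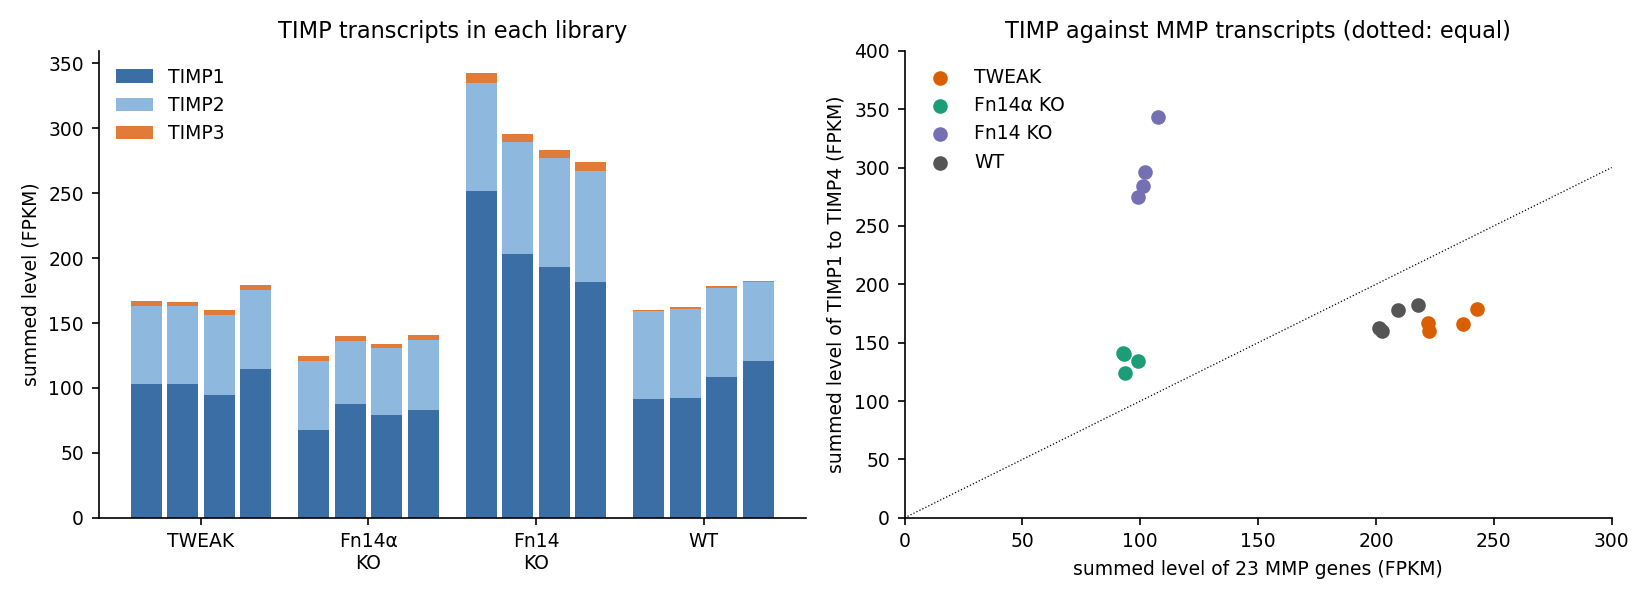
Left, FPKM of TIMP1, TIMP2 and TIMP3 stacked for each library (TIMP4, at most 0.840 FPKM, is not drawn). Right, the TIMP sum against the sum of 23 MMP genes in FPKM, 1 point a library, with a dotted line where they are equal: the 8 knockout libraries lie above that line and the 8 TWEAK and WT libraries below it.

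Of the 23 MMP genes, 13 passed the filter. In Fn14α KO 9 fell and 2 rose (median log2 change −0.94, against 0.0050 over all genes tested). In Fn14 KO 8 fell and 2 rose (median −0.81, against −0.0068), and with TWEAK 2 rose and 1 fell (median −0.03, against −0.01). The called share of the tested MMP genes was 84.6% in Fn14α KO, 76.9% in Fn14 KO and 23.1% with TWEAK. Over all genes it was 42.2%, 52.9% and 6.87% in that order. MMP14, the membrane collagenase that TIMP2 binds, was the most abundant, with 98.3 ± 2.52 FPKM with TWEAK, 62.3 ± 2.26 in Fn14α KO, 69.3 ± 3.46 in Fn14 KO and 109.1 ± 3.91 in WT. It fell in Fn14α KO (log2 fold change −0.84, edgeR adjusted p = 2.96e-11) and in Fn14 KO (−0.54, edgeR adjusted p = 2.55e-08).

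MMP2, the gelatinase whose precursor TIMP2 presents to MMP14, differed in the same directions as TIMP2 in the knockouts. It averaged 8.36 ± 0.790 FPKM with TWEAK, 0.920 ± 0.125 in Fn14α KO, 21.6 ± 0.901 in Fn14 KO and 9.31 ± 0.894 in WT. Against WT it fell in Fn14α KO (log2 fold change −3.37, edgeR adjusted p = 1.79e-17) and rose in Fn14 KO (1.33, edgeR adjusted p = 1.27e-12). MMP9, the other gelatinase, rose with TWEAK to 63.4 ± 4.29 FPKM, against 19.0 ± 0.442 in WT (1.79, edgeR adjusted p = 1.35e-14), and fell to 8.32 ± 0.674 in Fn14α KO and 2.72 ± 0.316 in Fn14 KO. MMP1, the interstitial collagenase, averaged 45.6 ± 2.42 FPKM with TWEAK, 11.8 ± 0.486 in Fn14α KO, 0.803 ± 0.193 in Fn14 KO and 57.5 ± 6.53 in WT. Its decrease in Fn14 KO was −6.05 on the log2 scale (edgeR adjusted p = 8.29e-22). The smaller one with TWEAK (−0.28, edgeR adjusted p = 0.0353) was lost without WT replicate 4 (adjusted p = 0.147) and without any 1 of the TWEAK libraries (adjusted p 0.0507 to 0.145), as it was with the replicate number as a block (adjusted p = 0.0688).

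The ADAM and ADAMTS proteases, some of which TIMP3 inhibits, showed no single direction across both knockouts. Of 12 ADAM genes 8 were tested. With TWEAK 0 were called by edgeR, 0 by DESeq2, and 0 had an unadjusted p under 0.05. In Fn14α KO 5 rose, and in Fn14 KO 1 rose and 4 fell, 62.5% of those tested in each, against 42.2% of all genes in Fn14α KO and 52.9% in Fn14 KO. After the median of neighbouring genes was removed, 3 were called in Fn14α KO. ADAM17, the TNF-shedding enzyme, averaged 2.59 ± 0.172 FPKM with TWEAK, 3.40 ± 0.534 in Fn14α KO, 1.28 ± 0.186 in Fn14 KO and 2.59 ± 0.183 in WT. It fell in Fn14 KO (log2 fold change −0.89, edgeR adjusted p = 1.46e-07), where TIMP3 was highest. Its rise in Fn14α KO (0.36, edgeR adjusted p = 0.00510) was lost when neighbours were removed (adjusted p = 0.0779). ADAM19 rose in Fn14 KO to 23.3 ± 2.43 FPKM, against 8.53 ± 1.03 in WT (1.57, edgeR adjusted p = 1.98e-13), while ADAM33 rose to 3.25 ± 0.448 FPKM in Fn14α KO and fell to 0.528 ± 0.113 in Fn14 KO, against 1.42 ± 0.177 in WT. ADAM10, ADAM9 and ADAM15, among the most abundant of the list, differed from WT by at most 0.26 in log2 in any group, and of these ADAM10 and ADAM15 passed in Fn14α KO (edgeR adjusted p = 0.00489 and 0.0130). The ADAM15 call was lost with neighbours removed (adjusted p = 0.0801).

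Of 19 ADAMTS genes 12 were tested, of which 1 rose with TWEAK, 5 rose and 3 fell in Fn14α KO, and 4 rose and 3 fell in Fn14 KO. The called share was 8.33% with TWEAK, 66.7% in Fn14α KO and 58.3% in Fn14 KO, against 6.87%, 42.2% and 52.9% of all genes, so it lay near that of all genes with TWEAK and in Fn14 KO. ADAMTS12, the most abundant, rose with TWEAK to 10.96 ± 0.087 FPKM, against 8.86 ± 0.835 in WT (log2 fold change 0.36, edgeR adjusted p = 0.000566). It also rose in Fn14α KO, to 10.9 ± 0.648 (0.27, edgeR adjusted p = 0.00211), and fell to 5.96 ± 0.264 in Fn14 KO (−0.46, edgeR adjusted p = 3.57e-06). ADAMTS2, which trims the amino end of procollagen, reached 3.65 ± 0.235 FPKM in Fn14 KO, against 0.01 ± 0.00817 in WT. ADAMTS6 rose in Fn14 KO (0.53, edgeR adjusted p = 1.15e-05) and fell in Fn14α KO (−0.27, edgeR adjusted p = 0.0159), a call lost under 4 of 27 alternatives, among them leaving out Fn14α KO replicate 3 (adjusted p = 0.0760). ADAMTS7 rose in Fn14α KO (0.45, edgeR adjusted p = 0.000321). The ADAMTS7 call was lost with neighbours removed (adjusted p = 0.0959), and a decrease of ADAMTS3 in Fn14α KO (−0.33, edgeR adjusted p = 0.0382) was lost under 12 of 27 alternatives.

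**Figure D5:**
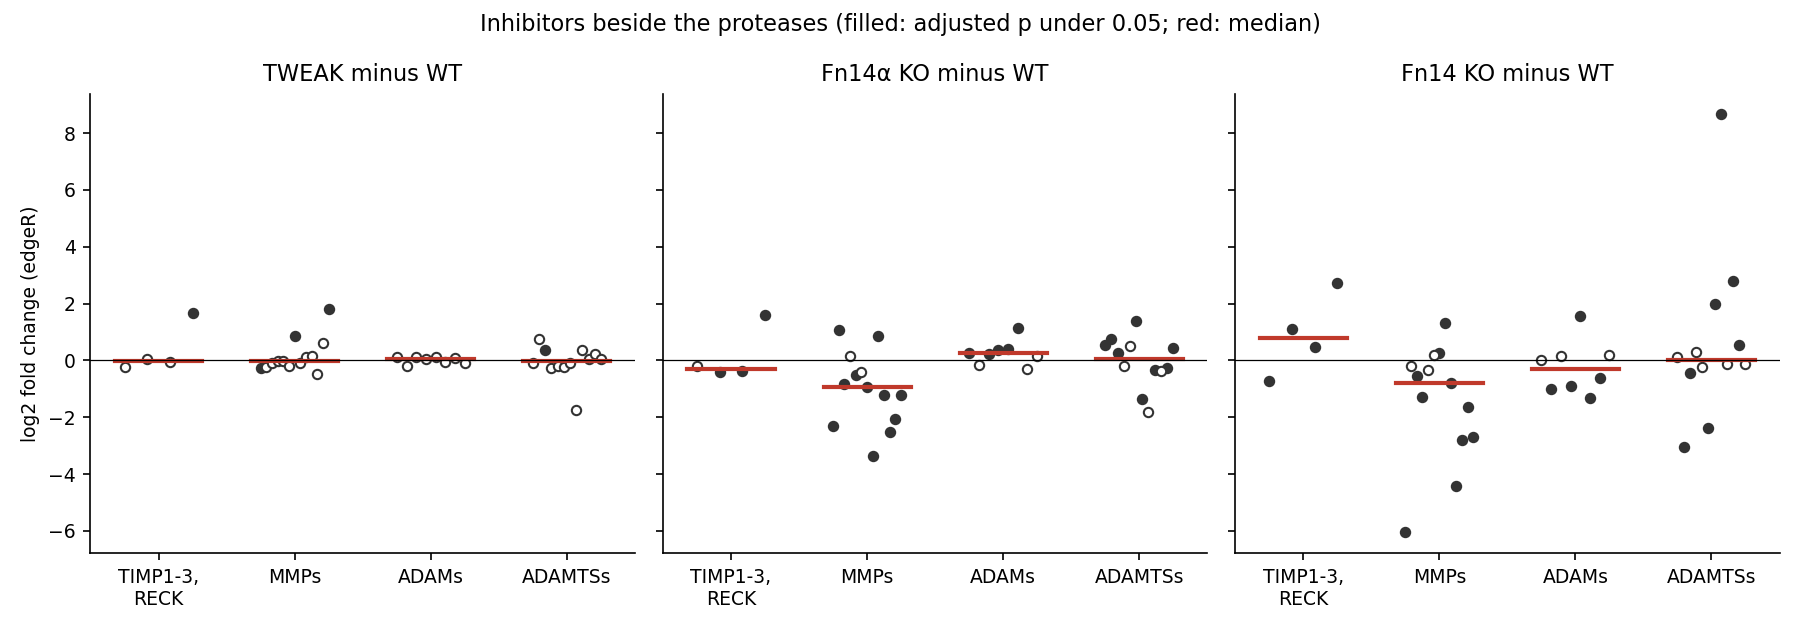
Log2 fold change against WT (edgeR) of the tested TIMPs and RECK beside the tested MMP, ADAM and ADAMTS genes, 1 panel per comparison, filled where the adjusted p was under 0.05 and with a red bar at each list's median. The MMP median lies at −0.94 in Fn14α KO and −0.81 in Fn14 KO, while the inhibitors' points lie on both sides of 0 in every panel.

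Known partners of the inhibitors on the cell surface and in the matrix were followed as a list of 10, of which 8 were tested. With TWEAK 0 were called in the main edgeR fit or by DESeq2, and 2 had an unadjusted p under 0.05. These were CD74 (log2 fold change −0.98, edgeR adjusted p = 0.0592) and KDR (−0.69, edgeR adjusted p = 0.145). The absence of a call depended on the setting. In several alternatives 1 partner was called, among them edgeR with total counts, without WT replicate 4 and without TWEAK replicate 1. In Fn14α KO 4 rose and 4 fell, where 42.2% of all genes were called, and in Fn14 KO 3 rose and 3 fell, where 52.9% were. CD63 and ITGB1, the tetraspanin and the integrin chain through which TIMP1 acts on cells, fell with TIMP1 in Fn14α KO. CD63 averaged 244.5 ± 8.72 FPKM with TWEAK, 154.8 ± 10.2 in Fn14α KO, 240.7 ± 33.4 in Fn14 KO and 251.0 ± 14.8 in WT, a fall of −0.73 on the log2 scale in Fn14α KO (edgeR adjusted p = 9.64e-08) and a difference of 0.06 in Fn14 KO (edgeR adjusted p = 0.576). ITGB1 fell in Fn14α KO to 33.7 ± 3.24 FPKM, against 81.1 ± 4.58 in WT (−1.30, edgeR adjusted p = 1.53e-11). ITGA3, the alpha chain of a TIMP2-binding integrin, rose in both knockouts, to 72.2 ± 0.632 FPKM in Fn14α KO and 62.5 ± 1.49 in Fn14 KO, against 55.7 ± 3.54 in WT (edgeR adjusted p = 2.20e-05 and 0.000126).

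EFEMP1, a matrix protein that binds TIMP3, rose in Fn14α KO to 49.1 ± 1.56 FPKM, against 22 ± 0.697 in WT (log2 fold change 1.13, edgeR adjusted p = 8.45e-13). LRP1, the receptor that clears TIMP3 from the medium, fell in Fn14α KO to 3.27 ± 0.627 FPKM and in Fn14 KO to 3.07 ± 0.414, against 5.06 ± 1.03 in WT (edgeR adjusted p = 0.000696 and 0.00112), although libraries overlapped and the Fn14α KO call was lost with neighbours removed (adjusted p = 0.292). ADGRA2, the adhesion receptor that works with RECK in WNT7 signalling, rose to 6.11 ± 0.679 FPKM in Fn14α KO and 5.06 ± 0.799 in Fn14 KO, against 3.05 ± 0.627 in WT (edgeR adjusted p = 3.84e-06 and 1.36e-05).

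Other inhibitors of metalloproteinases and proteins with the netrin-like domain of TIMPs made a list of 10, of which 5 were tested. Of these, 1 rose with TWEAK, 2 fell in Fn14α KO, and 1 rose and 2 fell in Fn14 KO. The called share was 20% with TWEAK, 40% in Fn14α KO and 60% in Fn14 KO. Over all genes it was 6.87%, 42.2% and 52.9% in that order, so the list lay near all genes in both knockouts. TFPI2, a Kunitz-type inhibitor of serine proteases that also acts on MMPs, averaged 157.3 ± 18.5 FPKM with TWEAK, 19.99 ± 1.24 in Fn14α KO, 3.27 ± 0.512 in Fn14 KO and 101.2 ± 5.92 in WT. Against WT it rose with TWEAK (log2 fold change 0.69, edgeR adjusted p = 1.27e-06) and fell in Fn14 KO (−4.83, edgeR adjusted p = 3.21e-21), where TIMP1, TIMP2 and TIMP3 were at their highest. SPOCK1, a proteoglycan known to restrain membrane-type MMPs, rose in Fn14 KO to 4.14 ± 0.539 FPKM, against 1.35 ± 0.0392 in WT (1.74, edgeR adjusted p = 1.01e-11). PCOLCE, a collagen-processing enhancer with a netrin-like domain, fell in Fn14α KO to 14.6 ± 0.929 FPKM, against 27.2 ± 1.73 in WT (−0.93, edgeR adjusted p = 1.21e-08).

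The genes whose pattern over the 16 libraries was most like that of each inhibitor were ranked by Pearson's correlation of log2 CPM. These values mostly restate the differences between 4 groups and share libraries and depth. For TIMP1 they were MYL12A (0.99), ATF4 (0.99) and GAR1 (0.98), for TIMP2 LTBP1 (0.99), GNG2 (0.99) and ELOVL6 (0.98), for TIMP3 FOXC2 (0.96), MYC (0.94) and AXL (0.94), and for RECK EMSY-DT (0.93), CRIPT (0.93) and P2RX5 (0.93). FOXC2, a forkhead transcription factor, averaged 5.69 FPKM with TWEAK, 7.85 in Fn14α KO, 10.7 in Fn14 KO and 3.42 in WT, the same order of group means as TIMP3. Among the inhibitors themselves, TIMP1 and TIMP2 had a correlation of 0.92 over the 16 libraries, and of −0.51 once each group's mean was taken away.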

How the data were processed

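Poly(A) RNA of 16 LX-2 libraries was measured. The deposited table gives a raw count per gene and library, the FPKM the authors made from those counts, and exonic gene sizes, per the file headers. FPKM recomputed here from counts, exonic size and library total differed from the deposited FPKM by at most 0.005. The submitters' processing notes name HISAT2 2.0.1, HTSeq 0.6.1, DESeq2, cutadapt 1.9.1 and FastQC 0.10.1, without roles, and the builds hg38 and GRCh38.p13. No source used here gives the annotation release, the strand setting or the handling of reads that match more than 1 gene.

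Counts were analysed in R 4.3.3 with edgeR 4.0.16; DESeq2 1.42.0 and limma 3.58.1 served for alternatives, and matplotlib 3.10.9 for plots. The main test was edgeR's two-sided quasi-likelihood test on all 16 libraries with a mean for each group, TMM factors, robust dispersion and the group-wise filterByExpr filter. It covered 16029 genes, with Benjamini-Hochberg adjustment over all of them, calls at 0.05 and a common dispersion of 0.0075. The script was tested on simulated data. The standard error is the log2 fold change divided by the square root of the F statistic. Fold values come from this fit and can differ from ratios of FPKM means. Replicate pairs within a group differed by more than sampling noise (chi-square per degree of freedom 2.30 to 39.0 over 24 pairs), so each library was counted once.

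The 5 genes, the lists and the tests were chosen with earlier results of these data known. From each list the text takes the 4 genes of highest mean FPKM and, per comparison, the called genes with the largest rise and fall among those with at least 2 FPKM on average in a group, leaving out PCOLCE2, which stayed under 0.5 FPKM. CD74 and KDR were named after their values were seen. Neighbours are tested genes of at least 2 log2 CPM on the same chromosome, and their median log2 change entered the same fit as an offset. Each test of TIMP1, TIMP2, TIMP3, RECK and the named list genes was recomputed under 27 alternatives and each TIMP4 bound under 9; sums of FPKM, their ratios and correlations were not recomputed. Replicate numbers appear in every group. The deviations of same-numbered libraries from their group means correlated at −0.228 to 0.108 over 24 pairs, 1 of them over 0.1, so the numbers were not taken as pairs. Promoter sequences are from RefSeq, GRCh38.p14.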

Additional observations from a re-analysis of the deposited data

Results flagged for a closer look

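In 1 of 17 sets of 4 libraries checked (each measured gene in each group), 1 library stood far from the other 3, and chance alone flags about 1 in 20 such sets. It was TIMP2 in WT replicate 4, at 60.43 FPKM against 67.7 to 68.7 FPKM in the other WT libraries, and without it the difference of TIMP2 from WT stayed uncalled with TWEAK and called in both knockouts.

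The 4 tested inhibitors differed between the knockouts, in a direct test of Fn14 KO against Fn14α KO (edgeR). The log2 difference was 1.5365 for TIMP1 (adjusted p = 8.74e-11), 0.8526 for TIMP2 (adjusted p = 4.00e-12), 1.1134 for TIMP3 (adjusted p = 1.95e-09) and −0.5208 for RECK (adjusted p = 0.000251), and 59.2% of all genes tested were called in that comparison. TIMP1 and TIMP2 both lay below WT in Fn14α KO and above it in Fn14 KO. TIMP3 lay above WT in both knockouts, and RECK was called against WT only in Fn14 KO.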

How the results depend on the processing

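Each of the 16 member results was repeated under 27 alternatives. Some of these left out a library of a group outside the comparison and could hardly move its estimate. Of the 432 repeats, 431 kept the direction and the side of the threshold. The exception was TIMP2 in Fn14 KO minus WT with the median of 50 neighbouring genes on each side removed (0.0425, edgeR adjusted p = 0.571), and the window of 25, added after the data were seen, gave 0.16. The same step lowered TIMP1 in Fn14 KO minus WT to between 0.37 and 0.64, and the cause of the regional shift was not tested. EFEMP1 in Fn14 KO minus WT, −0.25 as tested, turned to 0.13 with 50 neighbours on each side and to 0.17 with 25. Leaving out single libraries moved TIMP1 between 1.01 and 1.21, TIMP2 between 0.42 and 0.48, TIMP3 between 2.59 and 2.82 and RECK between −0.79 and −0.66 in Fn14 KO minus WT. The lower bound for TIMP4 against WT, with its Fn14 KO level taken as measured, ranged from 10.77 to 16.35 in the same way, and against Fn14α KO from 10.05 to 15.13. All WT and Fn14α KO libraries had 0 TIMP4 counts. Leaving 1 of them out therefore changed only the library total behind the floor, and those repeats could not test the bound.

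With total counts in place of TMM, the median of all genes moved by −0.12 in Fn14 KO minus WT and by −0.15 between the knockouts, and TIMP1 kept 1.01 and 1.39 there. With the replicate number as a block, TIMP3 with TWEAK was 1.66 and no call of the 4 tested inhibitors changed. TIMP4, at 7 to 16 counts in Fn14 KO, and TIMP3 in WT, at 63 to 110, are limited by depth. The 3 comparisons with WT rest on the same 4 libraries.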
